A study of Rattus norvegicus with 30 samples.

Results

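The prostaglandin, leukotriene and kinin pathway was followed here through 10 genes: Ptgs1, Ptgs2, Ptges, Alox5, Ptger2, Ptger3, Ptger4, Kng1, Bdkrb1 and Bdkrb2. Every probe whose gene name in the scanner files was a member was taken, which gave 10 of the 14979 genes named on the array and 13 of its 41012 probes. Adult male Sprague-Dawley rats had a segment of the left sciatic nerve resected under an intraperitoneal mixture of trichloroacetaldehyde monohydrate, magnesium sulfate and sodium pentobarbital. Proximal sciatic nerve (SN) and the L4-6 dorsal root ganglia (DRG) were collected at 0, 1, 4, 7 and 14 d, which made 10 groups of 3 arrays, and the 0 d groups of the same series served as controls. The labels give no sham operation and do not say how many rats went into an array, so p-values measure the spread between these samples, which may be partly technical.

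Prostaglandins and leukotrienes are lipid mediators made from arachidonic acid, which phospholipases release from membranes. Cyclooxygenases and terminal synthases such as Ptges lead to prostaglandin E2, which acts on the EP receptors, while 5-lipoxygenase opens the leukotriene branch. Kinins are short peptides that kallikreins cut from kininogens, and their B1 and B2 receptors sit on sensory neurons, endothelium and other cells. In injured peripheral nerve these mediators are known for vascular leakage, recruitment of leukocytes and sensitization of nociceptors.

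The kininogen and kinin receptor results turn on 60-base probes, whose sequences can be compared with each other. The first Kng1 probe and the probe for Kng1l1, a neighbouring kininogen gene, are printed below with the bases that differ between them in capitals. The second Kng1 probe, the probe named Kng2 and the receptor probes are in lower case throughout.
Kng1 (first probe): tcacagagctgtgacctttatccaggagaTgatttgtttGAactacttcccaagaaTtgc
Kng1l1: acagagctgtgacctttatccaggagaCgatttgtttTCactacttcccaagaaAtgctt
Kng1 (second probe): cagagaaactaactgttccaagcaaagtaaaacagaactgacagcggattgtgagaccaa
Kng2: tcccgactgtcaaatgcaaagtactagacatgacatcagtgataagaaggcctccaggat
Bdkrb1: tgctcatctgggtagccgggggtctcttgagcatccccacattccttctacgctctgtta
Bdkrb2 (first probe): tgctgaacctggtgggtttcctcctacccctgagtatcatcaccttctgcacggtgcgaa

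The first Kng1 probe and the Kng1l1 probe were offset by 2 bases and shared 54 of 58 aligned bases, so cross-hybridization between these transcripts cannot be told apart from separate signals. The second Kng1 probe shared 13 of 29 bases with the Kng1l1 probe at its best ungapped offset, and 9 of 20 with the first Kng1 probe. Probes were aligned with probes and not with transcripts. Whether the second Kng1 probe also detects the Kng1l1 transcript was therefore not tested. The forward primer that the study used for Kng1, gacctttatccaggagatgatttg, lay at bases 13 to 36 of the first probe with 0 differences and differed from the Kng1l1 probe at 1 base. The reverse primer, tgcttggaacagttagtttctctg, was the reverse complement of bases 1 to 24 of the second probe. The array names NM_012696 Kng1, whereas the RefSeq table lists that accession under Kng2, and the array's Kng1l1 is listed there as Kng1. The array's names are kept here. In rn4 coordinates of the scanner files, the first Kng1 probe maps to chr11:80124373-80125403 on the plus strand, a span of 1031 bases that is longer than the probe, and the second to chr11:80127589-80127648. Kng1l1 maps to the minus strand of the same chromosome. Bdkrb1 maps to chr6:129761878-129761937, and the Bdkrb2 probes to chr6:129748141-129748200 and chr6:129750481-129750539. No gene annotation of that build was used here, so exons and UTRs are not named.

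Levels are log2 of the background-subtracted signal minus the 75th percentile of each array, called normalized signal below. Because probes differ in brightness, a level was compared between groups of arrays and never between genes. A probe entered the test if any group had it well above background on each of its 3 arrays, and a gene was called at a limma adjusted p under 0.05 with a fold change over 2. The probe with the higher mean signal stood for a gene with several probes. By this filter all 10 genes were tested in both tissues, and 9 of 10 had a first probe well above background on 28 or more of the 30 arrays, the exception being Kng1 on 24.

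Arrays of a group correlated at 0.984 to 0.997 over all probes, and 26941 to 35573 probes were well above background on an array. The 8 sensory neuron markers, from Calca to P2rx3, summed to 478 to 497 in the 0 d DRG arrays and to 2.85 to 3.70 in the 0 d SN arrays, on the linear scale of the normalized signal, and all 6 Schwann cell markers were well above background on every SN array. The 30 arrays lay on 8 slides scanned on 3 dates, with all 0 d arrays in the same scan, so scan and the change from 0 d cannot be told apart. The median log2 change of all probes against 0 d was 0.11 to 0.16 in SN and 0.08 to 0.14 in DRG. Quantile normalization brought these medians to between -0.08 and 0.03 and lowered the share of rises among calls from between 70.1% and 84.5% to between 53.7% and 62.9% in SN, and from between 92.3% and 97.8% to between 73.0% and 86.1% in DRG. DRG 0 d replicate 1 stood apart from its group for Kng1 and Bdkrb2, and DRG 4 d replicate 1 did so for Ptgs2. Results that rest on these arrays are given with and without them. DRG 0 d replicate 1 lay on slide 2, and replicates 2 and 3 were the only arrays on slide 1, so array and slide cannot be told apart there. Without replicate 1, the DRG 0 d group comes from slide 1 only. In replicates 1, 2 and 3, 7, 3 and 4 of 7 neutrophil markers and 4, 1 and 1 of 4 liver markers were well above background. So were 4, 3 and 3 of 4 endothelial, 6, 5 and 5 of 7 mast cell and 4, 3 and 3 of 4 satellite glia markers. All 8 sensory neuron markers were so in each of these replicates. On every later DRG array all 7 neutrophil markers and 3 or 4 of the liver markers were well above background, so in these counts replicate 1 was like the later arrays. Whether dim genes were detected less well on slide 1 was not tested.

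Over the 80 comparisons of a member with 0 d, 18 were called higher and 0 lower. Under quantile normalization Ptger3 at 4 d (-1.09) and Bdkrb1 at 7 d (-1.12), both in SN, were called lower. In SN, 4 of 10 genes rose on day 1, 3 on day 4, 3 on day 7 and 3 on day 14, where 18.6%, 15.9%, 18.1% and 14.3% of all probes were called higher and 3.43%, 6.78%, 6.81% and 5.46% lower. In DRG, 3, 1, 1 and 0 of 10 rose on those days, where 7.43%, 6.04%, 6.58% and 13.0% of all probes were called higher and 0.169%, 0.506%, 0.326% and 0.460% lower. Across the days, 6 genes rose in SN (Ptgs1, Ptger2, Ptger4, Kng1, Bdkrb1 and Bdkrb2), 4 rose in DRG (Ptges, Ptger4, Bdkrb1 and Bdkrb2), and 3 rose in both. The median log2 change of the 10 genes was 0.74, 0.84, 0.75 and 0.64 in SN and 0.27, 0.30, 0.37 and 0.37 in DRG, beside 0.11, 0.15, 0.15 and 0.16 and 0.09, 0.14, 0.08 and 0.13 over all probes tested. With 10 genes, a count of 3 or 4 is a coarse share to set beside these percentages.

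**Figure D1:**
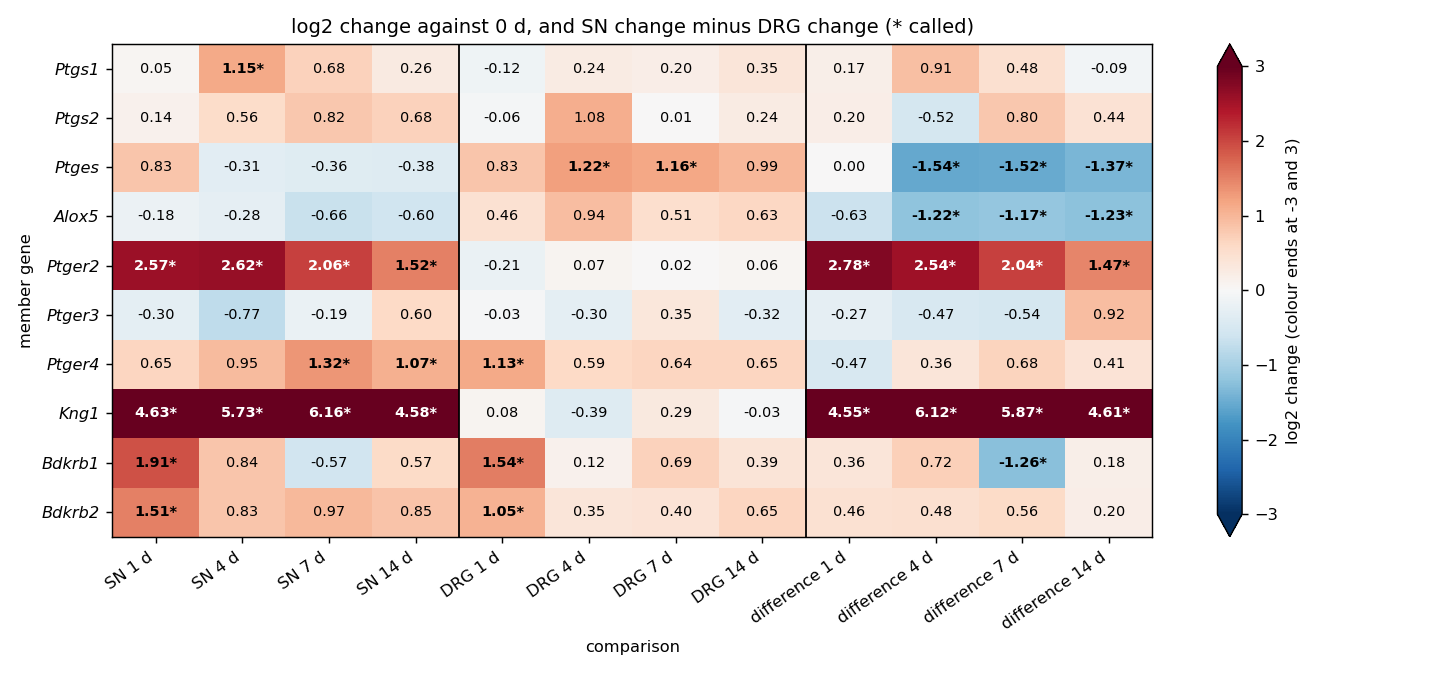
Log2 change of each of the 10 genes (rows) in SN against 0 d, in DRG against 0 d and in the difference between the tissues (columns, by day), with red for higher and blue for lower and a star for a called change. The SN values of the Kng1 row, from 4.58 to 6.16, are fitted values against a 0 d level not well above background, and the Ptges and Alox5 rows are blue in the difference columns from 4 d on.

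The change itself differed between the tissues for 2, 4, 5 and 4 of 10 genes at 1, 4, 7 and 14 d, where 12.1%, 18.9%, 15.9% and 12.9% of all probes were called in either direction. Ptger2 and Kng1 rose more in SN on every day. Ptges and Alox5 changed more in the direction of a rise in DRG at 4, 7 and 14 d, and so did Bdkrb1 at 7 d. At 0 d, 5 of 10 genes differed between the tissues, where 36.2% of all probes did. Of these, Ptgs1, Ptgs2 and Alox5 were called higher in SN, and Ptger2 and Kng1 were called higher in DRG. For Kng1 no SN 0 d array was well above background, so its difference is only bounded, at 1.01-fold or more. Of its DRG 0 d arrays 1 was well above background. Replicate 1 read -4.42 and the other DRG 0 d arrays -7.36 and -7.38.

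**Figure D2:**
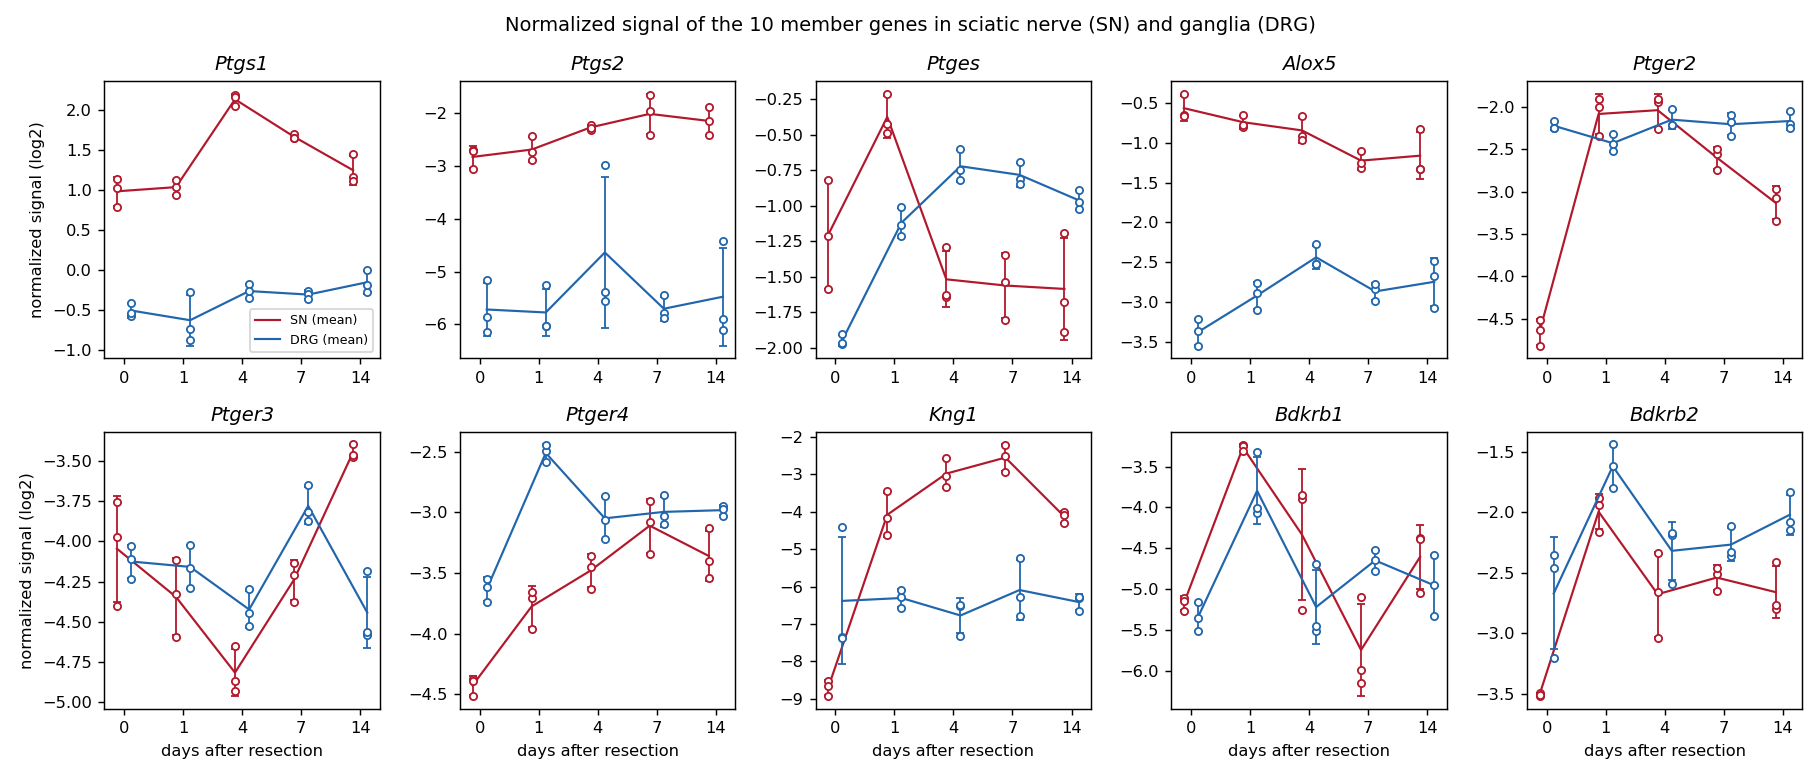
Normalized signal (log2, relative to the 75th percentile of each array) of the first probe of each gene against the day, with SN and DRG in different colours. Each point is an array, lines join the means of 3 arrays and bars are the SD; SN points of Ptger2 and Kng1 leave their 0 d level at 1 d, and the DRG points of Ptges do so from 1 d on.

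Of the cyclooxygenases, which convert arachidonic acid to the common prostanoid precursor, Ptgs1 rose in SN at 4 d and Ptgs2 was not called on any day in either tissue. The normalized signal of Ptgs1 in SN was 1.03, 1.14 and 0.78 on day 0, 1.04, 0.94 and 1.13 on day 1, 2.05, 2.18 and 2.16 on day 4, 1.70, 1.65 and 1.64 on day 7, and 1.17, 1.12 and 1.45 on day 14. All 4 d and 7 d arrays lay above all 0 d arrays. The rise at 4 d was 1.15 on the log2 scale (SE 0.11, limma adjusted p = 2.46e-06, 2.22-fold), and the difference at 7 d was 0.68 (adjusted p = 0.000156), short of the fold required. In DRG, Ptgs1 was -0.58, -0.41 and -0.53 at 0 d and between -0.87 and 0.01 afterwards, with no call. At 0 d its level was higher in SN by 1.49 (limma adjusted p = 1.88e-10, 2.80-fold). Its probe, printed in 10 spots per array, lies at chr3:15365115-15365174.

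Ptgs2 is the inducible cyclooxygenase. In SN its first probe read -2.70, -2.72 and -3.06 on day 0, -2.44, -2.73 and -2.89 on day 1, -2.21, -2.31 and -2.28 on day 4, -2.42, -1.96 and -1.65 on day 7, and -1.89, -2.41 and -2.14 on day 14. The 4, 7 and 14 d arrays all lay above the 0 d arrays, but the log2 differences of 0.56, 0.82 and 0.68 did not reach 2-fold. Without SN 7 d replicate 1 the 7 d difference was 1.02 and called. In DRG the 0 d arrays read -6.14, -5.17 and -5.85 with 1 of 3 well above background, and the 4 d arrays read -2.98, -5.38 and -5.55. DRG 4 d replicate 1 carried the 4 d difference of 1.08 (limma adjusted p = 0.193), which was 0.25 without it. At 0 d the measured level of Ptgs2 was higher in SN by 2.89 (limma adjusted p = 1.06e-05), against a DRG level that was near background. It was 2.68 without DRG 0 d replicate 1 and 3.31 within the slide that held both tissues, both called. The first probe lies at chr13:64434457-64434516. The second, at chr13:64430899-64431083, was well above background on 1 of 30 arrays, DRG 14 d replicate 3, and was not tested.

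Ptges, the inducible synthase that makes prostaglandin E2 from the cyclooxygenase product, rose in DRG. There it read -1.97, -1.96 and -1.90 on day 0, -1.14, -1.22 and -1.01 on day 1, -0.75, -0.82 and -0.60 on day 4, -0.69, -0.81 and -0.85 on day 7, and -1.02, -0.97 and -0.89 on day 14. Every DRG array after 0 d lay above every 0 d array. The log2 rise was 1.22 at 4 d (SE 0.08, limma adjusted p = 1.28e-06, 2.34-fold) and 1.16 at 7 d (adjusted p = 1.73e-06, 2.24-fold). At 14 d the difference was 0.99 (adjusted p = 7.55e-06), or 1.98-fold, just under the fold required, and at 1 d it was 0.83 (adjusted p = 5.36e-05). The 7 d call was lost with normexp background correction (0.97), and the 14 d difference was called without DRG 0 d replicate 3 (1.01) or DRG 14 d replicate 1 (1.02).

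In SN, Ptges read -1.21, -0.82 and -1.58 on day 0, -0.43, -0.21 and -0.49 on day 1, -1.64, -1.63 and -1.29 on day 4, -1.34, -1.80 and -1.54 on day 7, and -1.19, -1.89 and -1.68 on day 14. Its 1 d arrays were the highest of the SN arrays, with a log2 difference of 0.83 (SE 0.21, limma adjusted p = 0.00498) that became 1.02 and called without SN 0 d replicate 2. The later differences were -0.31, -0.36 and -0.38. The change in SN minus that in DRG was 0.00 on day 1, -1.54 on day 4 (limma adjusted p = 1.67e-05), -1.52 on day 7 (adjusted p = 2.17e-05) and -1.37 on day 14 (adjusted p = 9.97e-05). Within slides that held both tissues these differences were -1.34, -1.64 and -1.49, with adjusted p of 0.0975, 0.0565 and 0.0910. The probe lies at chr3:9946741-9946800.

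Alox5, or 5-lipoxygenase, makes the leukotriene precursor and is known from myeloid cells. In SN it read -0.65, -0.38 and -0.67 on day 0, -0.80, -0.78 and -0.65 on day 1, -0.91, -0.96 and -0.66 on day 4, -1.10, -1.32 and -1.25 on day 7, and -0.83, -1.33 and -1.33 on day 14. In DRG it read -3.37, -3.54 and -3.21 on day 0, -3.10, -2.88 and -2.76 on day 1, -2.27, -2.52 and -2.52 on day 4, -2.83, -2.99 and -2.77 on day 7, and -3.08, -2.67 and -2.48 on day 14. The SN arrays of 7 and 14 d lay below all SN 0 d arrays and the DRG arrays after 0 d lay above all DRG 0 d arrays, yet no change against 0 d was called in either tissue. The log2 differences were -0.18, -0.28, -0.66 and -0.60 in SN and 0.46, 0.94, 0.51 and 0.63 in DRG, where the 4 d value (limma adjusted p = 0.00113) was 1.02 and called without DRG 0 d replicate 3.

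The change of Alox5 in SN minus that in DRG was called at 4 d (-1.22, limma adjusted p = 7.26e-05), 7 d (-1.17, adjusted p = 0.000137) and 14 d (-1.23, adjusted p = 0.000102). With normexp correction these were -0.76, -0.86 and -0.82 and none was called, and at 14 d quantile normalization gave -0.99. Within slides that held both tissues they were -1.02 (adjusted p = 0.0763), -1.19 (adjusted p = 0.0239) and -1.38 (adjusted p = 0.0836), of which the 7 d value was called. At 0 d its level was higher in SN by 2.81 (limma adjusted p = 7.79e-14, 7.00-fold). The probe maps to chr4:152610831-152612409, a span of 1579 bases.

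Ptger2 encodes the EP2 receptor, which raises cyclic AMP. It rose on every day in SN. Its SN arrays read -4.63, -4.51 and -4.82 on day 0, -1.91, -2.35 and -2.00 on day 1, -2.26, -1.94 and -1.91 on day 4, -2.55, -2.50 and -2.74 on day 7, and -3.08, -3.35 and -2.97 on day 14. Every later array lay more than 1 log2 unit above every 0 d array. In DRG all 15 arrays lay between -2.52 and -2.03, and the 0 d arrays read -2.17, -2.25 and -2.24. The SN rises were 2.57 on day 1 (SE 0.15, limma adjusted p = 1.43e-07, 5.95-fold), 2.62 on day 4 (adjusted p = 6.48e-08, 6.13-fold), 2.06 on day 7 (adjusted p = 3.35e-07, 4.16-fold) and 1.52 on day 14 (adjusted p = 4.87e-06, 2.87-fold).

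The DRG differences of Ptger2 were -0.21, 0.07, 0.02 and 0.06, and the difference between the tissues' changes was 2.78, 2.54, 2.04 and 1.47. At 0 d the level in SN minus that in DRG was -2.43 (limma adjusted p = 3.23e-14, 5.40-fold lower in SN), and the SN arrays of 1 and 4 d overlapped the range of the DRG arrays. With normexp correction the rises at 7 d (0.99) and 14 d (0.62) and the difference between tissues at 14 d (0.70) were not called. The probe lies at chr15:20889441-20889500.

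Ptger4 encodes the EP4 receptor, which also raises cyclic AMP. It was called at 7 and 14 d in SN and at 1 d in DRG. In SN it read -4.37, -4.39 and -4.52 on day 0, -3.97, -3.71 and -3.66 on day 1, -3.45, -3.63 and -3.36 on day 4, -3.35, -3.08 and -2.91 on day 7, and -3.13, -3.54 and -3.40 on day 14. In DRG it read -3.74, -3.61 and -3.55 on day 0, -2.59, -2.49 and -2.45 on day 1, -2.86, -3.22 and -3.07 on day 4, -3.10, -2.86 and -3.03 on day 7, and -2.95, -3.03 and -2.97 on day 14. In each tissue every array after 0 d lay above every 0 d array. The SN rise was 1.32 at 7 d (SE 0.14, limma adjusted p = 5.93e-06, 2.50-fold) and 1.07 at 14 d (adjusted p = 4.40e-05, 2.10-fold), after differences of 0.65 and 0.95. In DRG the rise was 1.13 at 1 d (SE 0.10, limma adjusted p = 1.73e-05, 2.18-fold), followed by differences of 0.59, 0.64 and 0.65.

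The 3 calls of Ptger4 depended on the normalization. Quantile normalization gave 0.90 and 0.65 in SN and 0.90 in DRG, normexp correction gave 0.59, 0.41 and 0.54, and the 14 d call was lost without SN 14 d replicate 1 (0.95). Without SN 4 d replicate 2 the SN difference at 4 d was 1.02 and called. No difference between the tissues' changes was called. The probe lies at chr2:54423296-54423355.

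Ptger3 encodes the EP3 receptor, which mostly lowers cyclic AMP and is known from nociceptors. It was not called against 0 d on any day. Its SN arrays read -3.76, -3.97 and -4.40 on day 0, -4.12, -4.60 and -4.32 on day 1, -4.87, -4.93 and -4.65 on day 4, -4.21, -4.13 and -4.38 on day 7, and -3.48, -3.46 and -3.40 on day 14. The 4 d arrays lay below and the 14 d arrays above all 0 d arrays, with log2 differences of -0.77 (limma adjusted p = 0.00116) and 0.60 (adjusted p = 0.00675). In DRG it was -4.23, -4.11 and -4.03 at 0 d and between -4.58 and -3.65 afterwards. The 14 d difference between the tissues' changes was 0.92 (limma adjusted p = 0.00127), which was called under quantile normalization (1.07) and without SN 0 d replicate 1 (1.06) or DRG 14 d replicate 2 (1.05). Its probe maps to chr2:255681594-255719705, a span of 38112 bases.

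Kininogen signal rose in SN on every day. The first Kng1 probe was not well above background on any SN 0 d array and was so on all 12 later SN arrays. Since the 0 d level has only an upper bound, a fold is given as a bound against the lowest signal well above background. By this bound the first probe was at least 5.01-, 10.7-, 14.5- and 4.83-fold higher at 1, 4, 7 and 14 d. The fitted changes of this probe had limma adjusted p of 2.28e-07, 2.84e-08, 2.16e-08 and 2.07e-07. The bounds themselves were not tested, and the probe entered the SN test only through its later groups. The second Kng1 probe read -7.98, -8.43 and -7.47 in SN on day 0, -4.96, -3.72 and -4.53 on day 1, -3.58, -3.84 and -3.02 on day 4, -2.91, -3.32 and -2.65 on day 7, and -4.43, -4.42 and -4.47 on day 14. It too was not well above background at 0 d, and it followed the same order of days. It gave at least 4.00-, 7.58-, 10.9- and 3.90-fold higher signal at 1, 4, 7 and 14 d. Its fitted changes, and not these bounds, had limma adjusted p of 3.42e-06, 3.66e-07, 1.74e-07 and 3.49e-06.

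The Kng1l1 probe in SN read -8.57, -8.31 and -8.41 on day 0, -4.50, -3.56 and -4.39 on day 1, -3.12, -3.44 and -2.66 on day 4, -2.61, -2.90 and -2.37 on day 7, and -4.28, -4.23 and -4.12 on day 14. Its bounds were at least 4.77-, 10.1-, 13.7- and 4.58-fold higher. Its fitted changes, and not these bounds, had limma adjusted p from 1.43e-07 at 1 d to 1.49e-08 at 7 d. The 4 differing bases printed above are what separates it from the first Kng1 probe. Whether the second Kng1 probe also reads the Kng1l1 transcript was not tested. The array's Kng2 probe was well above background on 6 of 30 arrays and on none of the SN arrays, and a further kininogen probe, named only M14369, on 0 of 30.

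In DRG the first Kng1 probe was close to background. It read -4.42, -7.36 and -7.38 on day 0, -6.57, -6.27 and -6.08 on day 1, -6.51, -6.49 and -7.33 on day 4, -5.23, -6.79 and -6.27 on day 7, and -6.67, -6.30 and -6.27 on day 14. DRG 0 d replicate 1 lay above the other 14 DRG arrays. The second Kng1 probe and the Kng1l1 probe set the same array apart, at -5.29 and -4.50, and it shared a slide with the 3 SN 0 d arrays, which had no signal of this probe above background. Against all 0 d arrays the DRG differences were 0.08, -0.39, 0.29 and -0.03 with no call. Without DRG 0 d replicate 1 they were 1.06, 0.59, 1.27 and 0.95, of which the 7 d value was called (limma adjusted p = 0.0369).

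The rise of Kng1 exceeded the DRG change on every day, by 4.55 on day 1 (limma adjusted p = 7.26e-05), 6.12 on day 4 (adjusted p = 9.30e-07), 5.87 on day 7 (adjusted p = 1.76e-06) and 4.61 on day 14 (adjusted p = 5.05e-05). Without DRG 0 d replicate 1 these differences were 3.57, 5.14, 4.89 and 3.62, and within slides that held both tissues 6.77, 8.50, 6.96 and 6.39, all of them called. These are fitted values and not bounds. The lower level in SN at 0 d (-2.32, limma adjusted p = 0.000438) amounted to at least 1.01-fold once SN was set to its bound. It was -1.34 without DRG 0 d replicate 1 (adjusted p = 0.00266) and -4.29 within the slide that held both tissues (adjusted p = 0.000917), and with normexp correction it was -0.49 and not called.

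**Figure D3:**
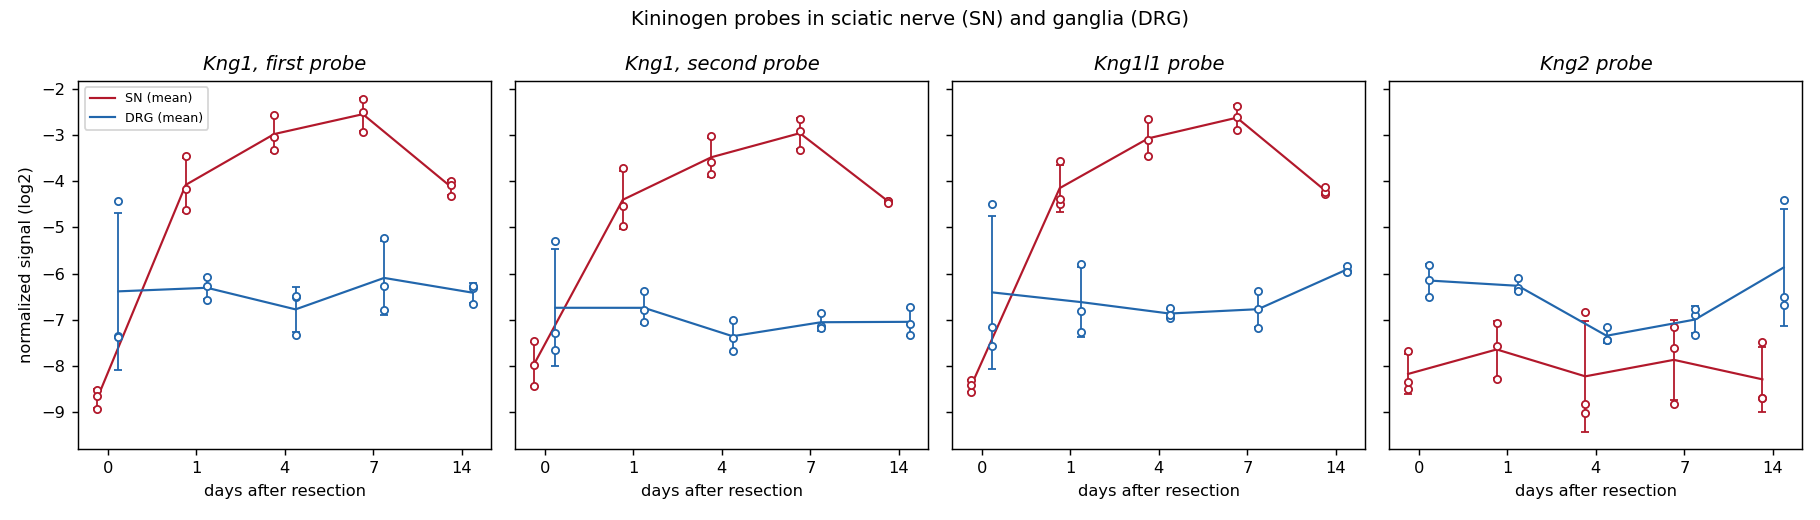
Normalized signal (log2, relative to the 75th percentile of each array) of the 2 Kng1 probes and the Kng1l1 and Kng2 probes against the day, 1 panel a probe, with a point for each of the 30 arrays, lines through the means of 3 arrays, SD bars and SN and DRG in different colours. The SN points of the Kng1 and Kng1l1 probes climb to a highest mean at 7 d, and DRG 0 d replicate 1 stands above the other DRG points at -4.42, -5.29 and -4.50.

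Kininogen of plasma is made mainly in liver. The 4 liver markers summed to 0.116 to 0.159 in the SN 0 d arrays. At 7 d, when Kng1 was highest, they summed to 0.0803 to 0.0943. Apoa1, Fgb, Ttr and Alb were well above background on 15, 14, 10 and 9 of 15 SN arrays. Of these 4 genes, 1 was called higher at 1 d and 1 lower on each later day in SN. The part of liver RNA in the kininogen signal was not tested.

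Over all 30 arrays, the genes whose pattern was most like that of the first Kng1 probe were Kng1l1 (Pearson's r = 0.978, Spearman's rho = 0.954), Kcnn4 (r = 0.946, rho = 0.909) and Ccdc99 (r = 0.928, rho = 0.813), out of 13705 genes compared with 1 probe each. Within SN alone r was 0.998, 0.966 and 0.964, and within DRG 0.759, 0.584 and 0.311. The arrays share groups and slides, so the values only describe likeness.

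Bdkrb2 encodes the B2 receptor, which binds bradykinin itself and is present in normal tissue. On its first probe it rose at 1 d in both tissues. SN arrays read -3.52, -3.49 and -3.51 on day 0, -2.16, -1.88 and -1.94 on day 1, -2.66, -2.33 and -3.03 on day 4, -2.65, -2.51 and -2.46 on day 7, and -2.80, -2.77 and -2.41 on day 14. DRG arrays read -3.20, -2.35 and -2.46 on day 0, -1.44, -1.62 and -1.80 on day 1, -2.59, -2.19 and -2.17 on day 4, -2.11, -2.36 and -2.33 on day 7, and -2.15, -2.08 and -1.83 on day 14. All SN arrays after 0 d lay above the SN 0 d arrays, and in DRG the 1 d arrays lay above all others. The 1 d rise was 1.51 in SN (SE 0.16, limma adjusted p = 8.97e-06, 2.85-fold) and 1.05 in DRG (SE 0.20, adjusted p = 0.00379, 2.07-fold). The DRG call was lost without DRG 0 d replicate 1 (0.79), without DRG 1 d replicate 1 (0.96) and under quantile normalization (0.92). At 0 d the level in SN minus that in DRG was -0.84 (limma adjusted p = 0.000377), short of the fold required. Without DRG 0 d replicate 1 it was -1.10 and called (adjusted p = 5.78e-06), and within the slide that held both tissues it was -0.31 (adjusted p = 0.179).

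The second Bdkrb2 probe, about 2 kb further along the chromosome, did not show this rise. No RefSeq transcript is listed for this second probe, which was assigned to Bdkrb2 by the array's gene name. In SN it read -2.51, -2.65 and -2.79 on day 0, -3.07, -2.80 and -2.84 on day 1, -2.84, -2.71 and -2.74 on day 4, -3.18, -3.40 and -3.36 on day 7, and -3.05, -3.13 and -3.50 on day 14. Its SN differences were -0.25, -0.11, -0.66 and -0.57 and its DRG differences 0.38, 0.29, 0.30 and 0.26, none of them called. In SN the differences of the 2 probes therefore had opposite signs on every day, though those of the second were not called. With the mean of both probes the 1 d rise was 0.63 in SN and 0.71 in DRG and not called. Normexp correction gave 0.95 in SN for the first probe, also not called.

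**Figure D4:**
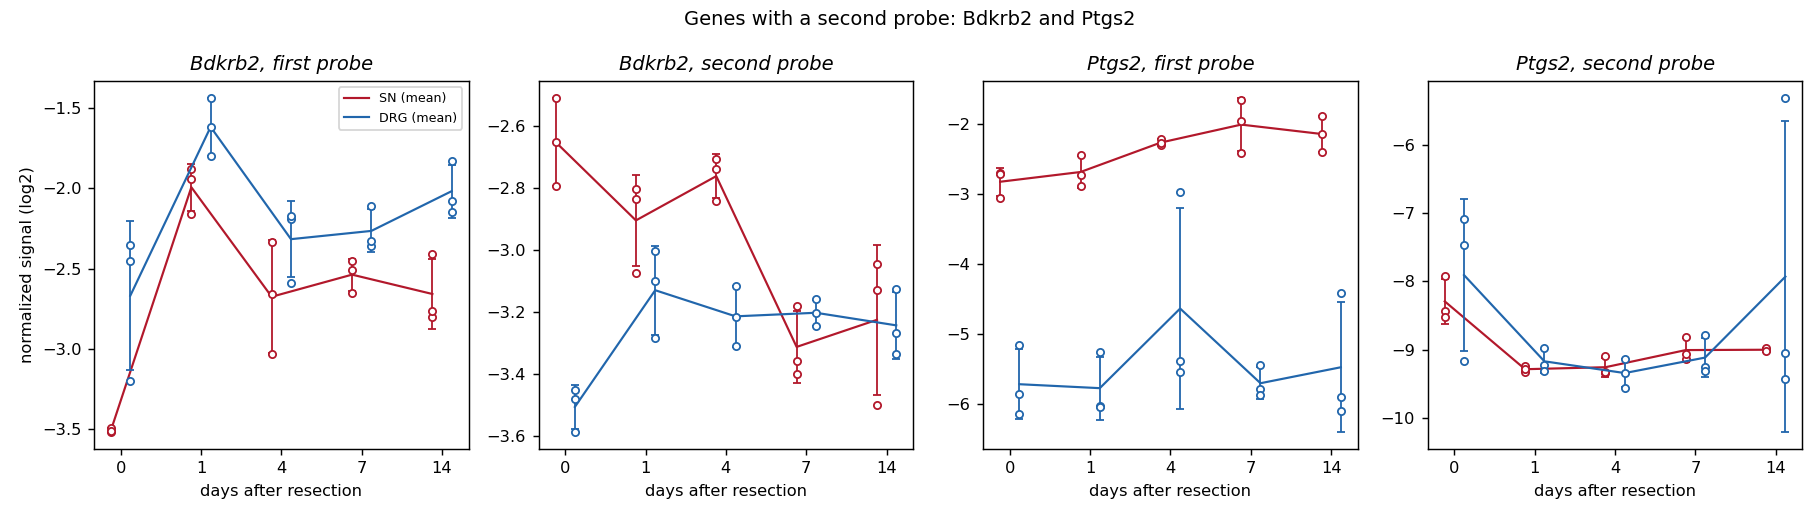
Normalized signal (log2, relative to the 75th percentile of each array) of the first and second probes of Bdkrb2 and Ptgs2 against the day, with a point for each array, lines through the means of 3 arrays, SD bars and SN and DRG in different colours. The SN points of Bdkrb2 rise from about -3.51 at 0 d on the first probe and do not rise on the second, and the second Ptgs2 probe is near background apart from DRG 14 d replicate 3 at -5.32.

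Bdkrb1 encodes the B1 receptor, which binds kinin fragments and is known as inducible by tissue injury. It too was called at 1 d in both tissues. SN arrays read -5.11, -5.14 and -5.27 on day 0, -3.24, -3.25 and -3.31 on day 1, -3.90, -3.84 and -5.25 on day 4, -6.15, -5.98 and -5.10 on day 7, and -4.38, -4.38 and -5.05 on day 14. DRG arrays read -5.36, -5.16 and -5.51 on day 0, -3.32, -4.07 and -4.00 on day 1, -5.51, -4.69 and -5.45 on day 4, -4.78, -4.64 and -4.52 on day 7, and -5.33, -4.95 and -4.58 on day 14. In both tissues the 1 d arrays lay above all 0 d arrays. The rise was 1.91 in SN (SE 0.36, limma adjusted p = 0.000582, 3.75-fold) and 1.54 in DRG (SE 0.25, adjusted p = 0.00146), where 1 of 3 arrays at 0 d was well above background. With normexp correction it was 0.76 in SN and 0.56 in DRG and not called.

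On some slides the Bdkrb1 arrays of both tissues lay close together. Slide 3 held the 3 SN 1 d arrays and DRG 1 d replicate 1, and all 4 read between -3.32 and -3.24. Slide 4 held the other DRG 1 d arrays and SN 4 d replicates 1 and 2, which read between -4.07 and -3.84. SN 4 d replicate 3 lay on slide 5 with the DRG 4 d arrays and read -5.25, 1.38 below the mean of its pair on slide 4. The ranges were -5.36 to -5.11 on slide 2 and -4.64 to -4.38 on slide 7. They were wider on slides 5 (-5.51 to -4.69), 6 (-6.15 to -4.78) and 8 (-5.33 to -4.58). The SD within a slide and tissue was 0.31, against 0.41 within a tissue and day. It was also the smaller for Bdkrb2 (0.14 against 0.23) and Kng1 (0.35 against 0.68), and for Ptger2 both were 0.15. Arrays of 1 slide and tissue were all of 1 day, so this SD is a finer cut of the same groups. An array alone on its slide in its tissue adds nothing to it. For Kng1 this leaves out DRG 0 d replicate 1, which lay 2.95 above its pair. A smaller SD therefore does not by itself show that levels went with the slide. All 0 d arrays lay on slides 1 and 2 and shared no slide with a later day, so slide and day cannot be told apart in any comparison with 0 d.

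Without SN 4 d replicate 3 the 4 d difference of Bdkrb1 in SN was 1.30 and called, against 0.84 with it. The difference between the tissues' changes at 7 d (-1.26, limma adjusted p = 0.0328) was not called with slide as a random block (-1.20, adjusted p = 0.0572) or within slides (-1.15, adjusted p = 0.209). The genes most like Bdkrb1 over the 30 arrays were Klhdc7b (Pearson's r = 0.971, Spearman's rho = 0.924), Olr1155 (r = 0.959, rho = 0.944) and Olr1398 (r = 0.937, rho = 0.893). Their SD within a slide and tissue was also below that within a tissue and day, at 0.26 against 0.47, 0.57 against 0.75 and 0.30 against 0.50, with the limit given above.

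**Figure D5:**
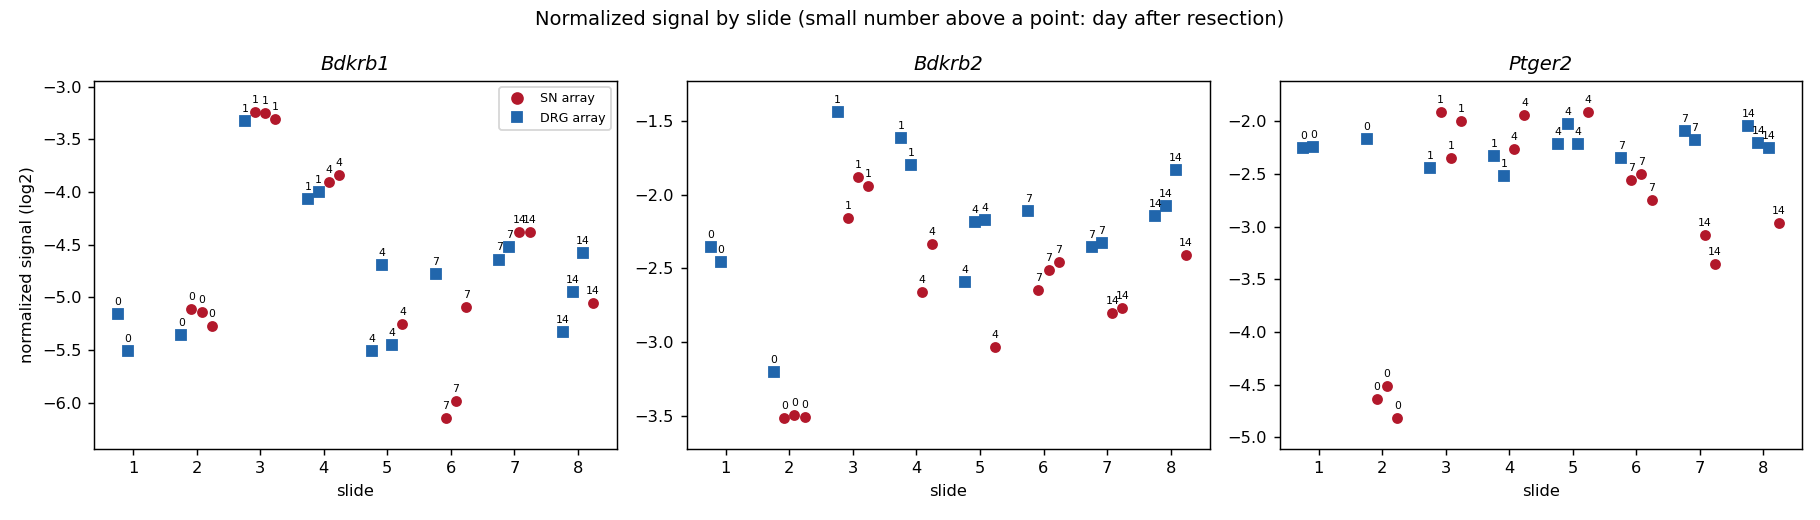
Normalized signal (log2, relative to the 75th percentile of each array) of Bdkrb1, Bdkrb2 and Ptger2 for the 30 arrays arranged by slide 1 to 8, with the day written above each point and SN and DRG in different colours. Bdkrb1 points of both tissues lie together on slide 3, between -3.32 and -3.24, and spread from -6.15 to -4.78 on slide 6. SN and DRG points of Ptger2 lie apart on the slide that holds all SN 0 d arrays.

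The rest of the pathway was counted in 4 lists, to be read beside the shares of all probes called on the same days. These were 18.6%, 15.9%, 18.1% and 14.3% higher and 3.43%, 6.78%, 6.81% and 5.46% lower in SN, and 7.43%, 6.04%, 6.58% and 13.0% higher and 0.169%, 0.506%, 0.326% and 0.460% lower in DRG. Of the enzymes and transporters of arachidonic acid release and prostanoid synthesis, 15 of 16 were on the array and tested. In SN 4, 4, 4 and 3 rose and 1, 2, 2 and 3 fell at 1, 4, 7 and 14 d, and their median changes of 0.20, 0.12, -0.08 and 0.04 lay near those of all probes. Pla2g2a, a secreted phospholipase, rose at 1 d from 0.40 ± 0.35 to 2.85 ± 0.21 (SD, n = 3), a log2 change of 2.46 (limma adjusted p = 5.28e-07). Pla2g5, another secreted phospholipase, fell by 2.27 at 14 d (adjusted p = 5.82e-07), from 1.05 ± 0.12 to -1.22 ± 0.25. Ptgds, the prostaglandin D synthase of glia and meninges, fell by 2.15 at 4 d (adjusted p = 3.65e-06), from 1.23 ± 0.20 to -0.92 ± 0.22. In DRG 0, 2, 2 and 2 rose and 0 fell, among them Tbxas1, the thromboxane synthase, which rose at 4 d by 1.27 (adjusted p = 0.000424), from -0.18 ± 0.36 to 1.09 ± 0.16. Its mean level also went up in SN, from 1.34 on day 0 to 2.56, 3.63, 3.15 and 2.61 on days 1, 4, 7 and 14.

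Of 6 other prostanoid receptors, 1 was called on each day in SN, and it was Ptgir, the prostacyclin receptor. It rose most at 1 d, by 2.40 (limma adjusted p = 2.36e-06), from -4.79 ± 0.13 to -2.39 ± 0.03 (SD, n = 3). In DRG 0, 1, 1 and 1 rose, and this was Ptgdr2, a prostaglandin D2 receptor, with log2 changes of 1.08, 1.09 and 1.85 at 4, 7 and 14 d. It was well above background on 1 of 3 DRG 0 d arrays and on all later DRG arrays, so the size of these changes is uncertain.

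Of 11 leukotriene and lipoxygenase genes, 2, 1, 1 and 0 of 10 tested rose in SN and 1, 0, 1 and 2 fell. In DRG 1, 3, 4 and 4 of 9 tested rose and 0, 1, 0 and 0 fell, and the list's median was 0.27, 0.75, 0.81 and 0.91 beside 0.09, 0.14, 0.08 and 0.13 for all probes. Ltc4s, the leukotriene C4 synthase, rose in DRG by 1.35 at 14 d (limma adjusted p = 0.00485), from -3.89 ± 0.57 to -2.53 ± 0.06, while in SN it fell by 1.56 at 1 d (adjusted p = 0.000682). The leukotriene B4 receptor Ltb4r rose in DRG at 4, 7 and 14 d by 1.17, 1.60 and 1.83, and in SN at 1 d by 1.24. It was well above background on 1 of 3 DRG 0 d arrays, and Dpep1 and Ltb4r2, which count in this list, on 0 of 3. Alox15 fell in DRG by 1.15 at 4 d (adjusted p = 0.00513), from -1.86 ± 0.41 to -3.01 ± 0.47. In SN the mean level of Alox15 went from -1.04 on day 0 to 0.12, -2.19, -2.42 and -2.52 on days 1, 4, 7 and 14.

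Of 12 genes of kinin release and breakdown, Kng1l1 included, 4, 2, 3 and 1 of 9 tested rose in SN and 0, 1, 1 and 0 fell. Cpm, a membrane carboxypeptidase that trims kinins to B1 receptor ligands, rose in SN by 1.80, 2.20 and 1.33 at 1, 4 and 7 d (limma adjusted p of 4.65e-08, 5.09e-09 and 1.83e-07), and Mme, or neprilysin, which degrades kinins, fell by 1.12 and 1.08 at 4 and 7 d. In DRG 0, 1, 1 and 1 of 10 tested rose, and this was F12, the contact factor XII, with changes of 1.11, 1.00 and 1.19. Cpn1 fell there by 1.06 at 4 d (adjusted p = 0.000757), from -4.32 ± 0.20 to -5.38 ± 0.26. Hpgds, Slco2a1, Pla2g4a, Pla2g4b, Ptgis, Alox12, Dpep1, Ggt5, Ltb4r2 and Xpnpep2 were the other genes of these lists called on at least 1 day. Ptgdr2, Ltb4r, Cpm, Mme and F12 were given values after these had been seen.

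Markers of other cells moved over the same days. In SN, 6, 7, 5 and 4 of 7 macrophage markers rose, and their sum went from 26.1 to 28.3 on day 0 to 63.8 to 83.6 on day 1, 103 to 128 on day 4, 80.6 to 97.2 on day 7 and 49.1 to 64.2 on day 14. In DRG, 0, 2, 3 and 2 rose and the sum went from 7.56 to 11.9 at 0 d to 21.1 to 23.7 at 7 d. Of 7 neutrophil markers, 6, 4, 4 and 5 rose in SN and 1 fell on day 4, with sums of 0.722 to 0.994 on day 0 and 8.79 to 16.4 on day 1. Of 7 mast cell markers, 1, 5, 5 and 4 fell in SN and 1, 0, 1 and 1 rose, with sums of 20.9 to 24.9 at 0 d and 6.52 to 7.76 at 7 d. Of 6 Schwann cell markers, 1, 3, 3 and 3 fell in SN, with sums of 492 to 604 at 0 d and 205 to 238 at 7 d. Of 5 fibroblast markers 0 were called against 0 d in either tissue. Their SN sums were 1104 to 1161 on day 0, 666 to 738 on day 1, 664 to 790 on day 4, 743 to 766 on day 7 and 744 to 845 on day 14. In SN, 1 of 4 endothelial markers fell at 1 d, with sums of 36.8 to 42.8 on day 0 and 24.9 to 28.4, 28.3 to 30.9, 28.6 to 33.1 and 21.6 to 30.1 on the later days. Also in SN, 0, 3, 2 and 3 of 4 adipocyte markers fell, and 1, 1, 2 and 1 of 4 satellite glia markers rose. The adipocyte sums of every later day overlapped those of 0 d, at 51.2 to 63.7 on day 14 against 51.0 to 89.7. The satellite glia sums of 1 and 4 d lay within the 0 d range, whose lowest value was 7.97. Those of 7 and 14 d, 7.00 to 7.93 and 5.87 to 6.40, lay below this range. On each SN 0 d array, 2 of the 4 satellite glia markers were well above background.

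Ptgs1, like the macrophage sum, was highest in SN at 4 d, and Ptger2 rose there on every day, as did macrophage and neutrophil markers. Alox5 went the other way in SN, with negative differences on every day and no call. In DRG the macrophage sum rose while Ptger2 was not called. The part of these cells in the changes of the members was not tested. In whole tissue, fewer cells of a type and less RNA per cell cannot be told apart. Skeletal muscle markers also varied, with sums from 98.4 to 1327 in the SN 0 d arrays. The sums were 6.50 to 23.0 at 4 d and 5.54 to 65.8 at 7 d, and 6 of 6 markers fell on each of these days. The part of muscle in the SN changes was not tested.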

How the data were processed

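RNA of 30 samples was hybridized by the study to one-colour Agilent rat arrays (Cy3). The deposited scanner files hold spot intensity from Agilent Feature Extraction 10.5.1.1, per the file headers already background-subtracted, and rn4 probe positions. The authors also deposited log2 values in a series matrix, which served as an alternative. No value column was left without a sample.

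Flagged spots were left out, spots of a probe were averaged, and log2 of the processed intensity minus the 75th percentile of each array over 41012 non-control probes was used. Where 50% or more of a probe's spots on an array carried the scanner software's mark for it, the probe was taken as well above background there. No spot was saturated, and 672 probe values were missing. The number of arrays, 3 a group, limits the precision.

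Each day was compared with 0 d by limma 3.58.1 (R 4.3.3) over the 15 arrays of a tissue, as the study's methods compare days. The SN and DRG changes and 0 d levels were compared in a fit of all 30 arrays. The Benjamini-Hochberg adjustment ran over all probes tested, 35163 in SN, 34977 in DRG and 36334 in the fit of both tissues. The fits were tested on simulated data. Slide and scan were taken from the file headers. Replicate numbers did not pair SN with DRG (correlations of deviations -0.19 to 0.22).

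The members and lists were chosen with earlier results of these data known. All members were named. Of each tissue's other pathway genes, the 2 largest rises and 2 largest falls among called genes well above background in both groups were named. For the member with the largest called change in each tissue, the 3 genes most correlated with it were named. Alternatives covered background correction, normalization, filters, slide, scan, probes, single arrays and the methods' t-test. Probe sequences came from the scanner files and current names from the RefSeq table, which held 13275 of 20304 accessions. Figures were drawn with matplotlib 3.10.9 in Python 3.11.15.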

Additional observations from a re-analysis of the deposited data

Results flagged for a closer look

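The difference between the change in SN and the change in DRG was itself called by limma in 15 of 40 tests of the members, and each is listed for a closer look because the tissues differed in their response. Positive values mean a larger rise in SN, on the log2 scale. For Ptger2 the differences were 2.78, 2.54, 2.04 and 1.47 at 1, 4, 7 and 14 d. For Kng1 they were 4.55, 6.12, 5.87 and 4.61 on those days, as fitted values against an SN 0 d level that was not well above background. For Ptges they were -1.54, -1.52 and -1.37 at 4, 7 and 14 d. For Alox5 they were -1.22, -1.17 and -1.23 at 4, 7 and 14 d. For Bdkrb1 the difference was -1.26 at 7 d, where the arrays also differed by slide.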

How the results depend on the processing

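Results of single members that were called kept their call and direction in 1270 cases and lost the call in 49, over all alternatives, and none reversed. Of those not called, 2928 stayed so and 21 became called, among them falls in SN of Ptger3 at 4 d (-1.09 and -1.10) and Bdkrb1 at 7 d (-1.12 and -1.15) under quantile normalization and with the authors' log2 values. Numbers of called members moved most with normexp background correction: in SN 2, 1 and 1 were left at 1, 7 and 14 d, in DRG 0 and 0 at 1 and 7 d, and for the difference between tissues 3 and 2 at 7 and 14 d. In DRG at 1 d, 1 member was called under quantile normalization, 1 with the authors' log2 values and 1 by the methods' t-test after adjustment. The stricter filter on dim probes left 1 and 3 members for the difference between tissues at 1 and 7 d and 3 for the difference at 0 d. Within slides that held both tissues, 2, 3 and 2 were called at 4, 7 and 14 d. Here fewer arrays entered the fit. The other causes were not tested. Leaving out single arrays gave 4 to 5, 3 to 5, 3 to 5 and 2 to 3 members in SN, 2 to 3, 1 to 2, 1 to 2 and 0 to 1 in DRG, 2 to 2, 4 to 5, 4 to 5 and 4 to 5 for the difference between tissues, and 5 to 6 at 0 d. With the replicate number as a block, the members called were 4, 3, 3 and 3 in SN, 3, 1, 1 and 0 in DRG, 2, 4, 5 and 4 for the difference between tissues and 5 at 0 d, as without it. Scan as a fixed block was not run for SN, where each group lay in 1 scan. Signals of Kng1 in SN at 0 d and of Kng1, Ptgs2 and Bdkrb1 in DRG at 0 d lay at or near background, which limits what their changes can show.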
